A study of Homo sapiens with 24 samples.

Results

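Small nucleolar RNA host genes are a family of mostly non-coding genes whose introns carry small nucleolar RNAs (snoRNAs). The account covers 10 of them: GAS5, SNHG1, SNHG5, SNHG6, SNHG8, SNHG12, SNHG15, SNHG16, SNHG29 and ZFAS1. They were selected on symbol from the 61541 genes of the 48 h table, each symbol matched 1 gene, and all 10 passed the filter on low values that left 14136 genes for testing. SNHG29 was chosen by its expression values, which had been seen to separate PNA2 from siRNA, so its values, and every difference between PNA2 and siRNA, are given as a description with no test. The other 9 genes were tested against control.

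In a snoRNA host gene, splicing frees the introns, from which the snoRNAs are cut, and leaves a spliced RNA that often has no conserved reading frame. Box C/D snoRNAs guide ribose methylation and box H/ACA snoRNAs guide pseudouridylation, mostly of ribosomal RNA. Many host transcripts begin, as messenger RNAs of ribosomal proteins do, with a C followed by a run of pyrimidines, the 5′ terminal oligopyrimidine (TOP) tract, through which translation follows growth signals. Spliced host RNAs are also known as substrates of nonsense-mediated decay (NMD), a pathway coupled to translation. MYC is known to promote the transcription of genes for ribosome production.

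RNA-seq was carried out on U2932, an established human diffuse large B-cell lymphoma line, after reagents directed at MYC. The series holds 24 samples, and the 14 libraries of 48 h were used here. In the first of 3 groups, 4 libraries came from cells given PNA2 for 48 h, a gamma peptide nucleic acid, in which a peptide-like chain replaces the sugar-phosphate backbone, at a dose the labels write as 8 mM, a unit that is doubtful. In the second, 4 libraries came from cells electroporated with an siRNA at 500 nM for 48 h. The third held 6 control libraries of cells treated with PBS for 48 h. The labels give the genotype as a MYC knockdown for both reagents and as wild type for the controls. No electroporated control is named, so the siRNA comparison includes the electroporation. The labels do not say whether replicates were separate cultures, so p-values measure only the spread between these libraries. For the siRNA libraries the cell line entries differ in the last digit, while the treatment text names U2932.

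The deposited 48 h values are read counts that had been adjusted for batch and not divided by depth. Library totals ran from 14.9 M to 16.03 M in PNA2, from 12.6 M to 16.2 M in siRNA and from 11.1 M to 14.5 M in control. Ties among low values showed 2 batches: batch A with 2 PNA2, all 4 siRNA and 3 control libraries, and batch B with 2 PNA2 and 3 control libraries. MYC, the target, had a scaled value of 7817 ± 784 in the libraries labelled PNA2 (SD, n = 4), 3837 ± 289 in siRNA (n = 4) and 6653 ± 786 in control (n = 6). Its log2 change was -0.81 in siRNA (limma adjusted p = 0.000318) and 0.24 in PNA2 (adjusted p = 0.096). For PNA2, batch A alone gave 0.02 (limma adjusted p = 0.877) and batch B alone 0.45 (adjusted p = 0.00826). Without PNA2 replicate 2 it was 0.28 (limma adjusted p = 0.0403). With no lower MYC RNA, the 4 PNA2 libraries go against their knockdown label, and PNA2 below stands for the libraries labelled PNA2. These data hold no measure of MYC protein. All 8 B cell markers reached a value of 10 in every group, while no T and NK or erythroid and megakaryocyte marker did. Of 6 myeloid markers 1 did. Of the B cell markers, limma called 1 higher and 1 lower in PNA2 and 5 higher in siRNA. The siRNA count was 2 without control replicate 1 and 3 without control replicate 2 or siRNA replicate 3, and the PNA2 count of higher markers was 2 without PNA2 replicate 2 or control replicate 4. Of 5 stroma and epithelium markers 4 reached 10 in PNA2, 3 in siRNA and 3 in control. EPCAM ran from 200 to 239 in PNA2, 208 to 298 in siRNA and 151 to 236 in control. COL1A1 reached 153 in PNA2, 22.9 in siRNA and 18.2 in control. Of the 5, 3 were tested and 0 called (limma; at an unadjusted p under 0.05, 1 was higher in PNA2 and 2 in siRNA). Summed values were 229 to 466 in PNA2, 253 to 356 in siRNA and 182 to 280 in control.

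Against control, 3 of the 9 tested host genes were higher and 2 were lower in the libraries labelled PNA2, and 7 were lower and 0 higher in the siRNA libraries, at a limma p adjusted over all genes of under 0.05 (called, below). The higher genes were GAS5, SNHG8 and SNHG6, and the lower ones SNHG12 and SNHG15. Of all genes tested, limma called 8.11% higher and 8.57% lower in PNA2, and 9.30% higher and 8.13% lower in siRNA. In siRNA, GAS5, SNHG1, SNHG8, SNHG12, SNHG15, SNHG16 and ZFAS1 were lower, while SNHG5 and SNHG6 did not pass the test. Both comparisons use the same controls. Levels are bulk RNA, in which fewer cells of a type and less RNA per cell cannot be told apart.

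Values below are deposited values divided by a library scale (TMM), called scaled values, and changes are log2 differences of the scaled value plus 1 from a limma fit with group and batch. Without that rescaling the median log2 change of all genes was 0.19 in PNA2 and 0.22 in siRNA, so changes are relative to a median near 0. The calls of all genes then numbered 2014 higher and 167 lower in PNA2, against 1146 higher and 1212 lower with rescaling. In siRNA they numbered 2124 higher and 74 lower, against 1315 higher and 1149 lower with rescaling. The 3 higher hosts in PNA2 were still called without rescaling, but SNHG12 (-0.28, adjusted p = 0.186) and SNHG15 (-0.17, adjusted p = 0.394) were not. Of the 7 hosts lower in siRNA, 4 were still called without rescaling: GAS5, SNHG1, SNHG12 and ZFAS1. All groups share a single batch term in the fit, so siRNA changes also draw on the PNA2 libraries. With only siRNA and control fitted, GAS5, SNHG1 and ZFAS1 were at -0.67, -0.64 and -0.66 in siRNA. With all groups fitted they were at -0.82, -0.81 and -0.84. SNHG8 was at -0.52 without PNA2 in the fit and -0.51 with it. Where the hosts or a gene list described below have 0 genes called in one direction with all libraries and rescaling, limma also gave 0 in that direction at an unadjusted p under 0.05.

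The transcript starts are shown because a TOP tract is known for many host transcripts, as for ribosomal protein genes. Of the 162 GENCODE 29 transcripts of the 10 genes, 29 (17.9%) start with a C followed by pyrimidines for at least 5 bases in all. This was so for 20.5% of the 804 transcripts of the ribosomal protein genes tested and for 2.41% of all 206694 transcripts. SNHG15 had none among 10 transcripts. The first 30 bases of the transcript with the longest such tract follow for 8 hosts (SNHG6, with a tract in 3 of its 5 transcripts, is not shown here), 5′ to 3′ in the sense of the gene, with the tract in capitals (GENCODE 29 transcripts, GRCh38).
GAS5: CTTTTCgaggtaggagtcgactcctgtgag
SNHG1: CTCCTgtctgcaggatttacgcgcacgttg
SNHG5: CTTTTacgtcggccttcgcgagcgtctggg
SNHG8: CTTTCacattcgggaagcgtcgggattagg
SNHG12: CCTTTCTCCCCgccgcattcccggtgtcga
SNHG16: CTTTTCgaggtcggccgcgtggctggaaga
SNHG29: CTCCTTTTgtgaggattgggatattccgac
ZFAS1: CCTTCCCaggtattggcaacaccagaagtc
GAS5 and SNHG16 both open with CTTTTC followed by gaggt. Annotated starts are not measured starts in these cells, and SNHG1 had such a tract in 1 of its 25 transcripts.

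The genes lie on 8 chromosomes. In GRCh38 with GENCODE 29, GAS5 (ENSG00000234741) spans chr1:173863900-173868882 on the reverse strand and SNHG12 (ENSG00000197989) chr1:28578538-28583132 on the reverse strand. SNHG8 (ENSG00000269893) spans chr4:118278709-118279823 on the forward strand and SNHG5 (ENSG00000203875) chr6:85660950-85678748 on the reverse strand. SNHG15 (ENSG00000232956) spans chr7:44983023-44986961 on the reverse strand and SNHG6 (ENSG00000245910) chr8:66921684-66926398 on the reverse strand. SNHG1 (ENSG00000255717) spans chr11:62851988-62855914 on the reverse strand. SNHG16 (ENSG00000163597) spans chr17:76557766-76565348 and SNHG29 (ENSG00000175061, named LRRC75A-AS1 in GENCODE 29) chr17:16438822-16478678, both on the forward strand. ZFAS1 (ENSG00000177410) spans chr20:49278178-49295738 on the forward strand. Whether counting used strand is not given in the sources used here. Genes that overlap a host on the other strand and had a mean deposited value above 100 were ZBTB37 (287, at GAS5), TRNAU1AP (556, at SNHG12) and ZNFX1 (1031, at ZFAS1), so GAS5, SNHG12 and ZFAS1 are uncertain to that extent.

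The snoRNAs themselves were hardly seen in the deposited values. GENCODE 29 places 25 snoRNA genes inside 9 of the hosts and none inside GAS5, which is known as a host of box C/D snoRNAs, and 23 of them were listed at 0 in every library. The other two, SNORD99 in SNHG12 and SNORD12C in ZFAS1, stayed under 10 in every library and were not tested. Whether these values reflect the level of the snoRNAs in the cells was not tested. The results below therefore concern the host RNAs.

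Per kilobase of merged exon, the order of the hosts was nearly the same in the 3 groups. SNHG29 was first, with a mean scaled level of 3365 ± 852 per kilobase in PNA2 (SD, n = 4), 1313 ± 57.7 in siRNA (n = 4) and 2002 ± 189 in control (n = 6). In each group its libraries did not overlap those of SNHG8, the next gene in order. SNHG8 averaged 1091 ± 96.4 per kilobase in PNA2, 643 ± 63.0 in siRNA and 856 ± 84.9 in control. GAS5, at 1058 ± 384 per kilobase in PNA2, 348 ± 15.5 in siRNA and 586 ± 62.3 in control, was the third in order in PNA2 and the fourth in siRNA and control. Among controls the ranges of SNHG8 and SNHG6 (680 ± 52.9), SNHG6 and GAS5, GAS5 and SNHG1 (495 ± 47.1), and SNHG15 and SNHG16 overlapped. Within every control library SNHG8 still lay above SNHG6 and GAS5 above SNHG1. The order of SNHG6 and GAS5, and of SNHG15 and SNHG16, varied between control libraries. The lower hosts were SNHG15 (187 ± 8.87 per kilobase in control), SNHG16 (175 ± 13.1), ZFAS1 (136 ± 10.8), SNHG12 (89.0 ± 12.4) and SNHG5 (36.0 ± 4.19). The span from the first to the last is a level per length and depends on how many of the annotated exons the cells use.

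**Figure D1:**
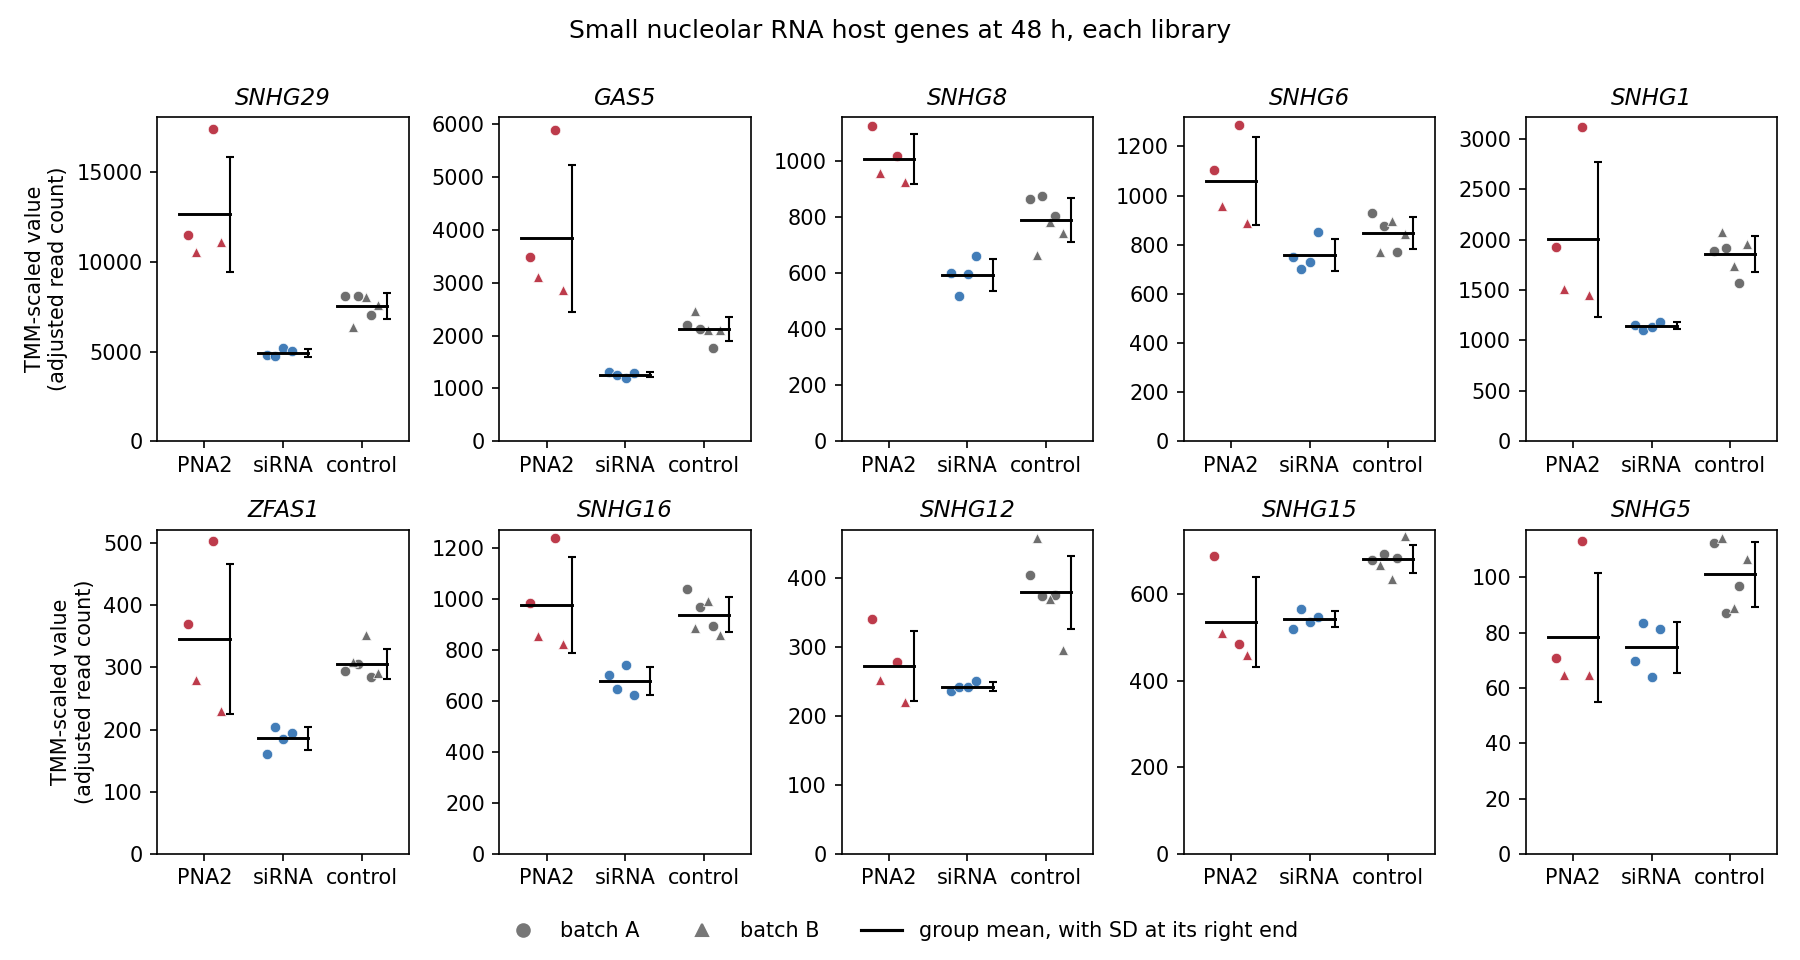
TMM-scaled value (batch-adjusted read count divided by a library scale) of each host gene in every 48 h library, with 4 libraries labelled PNA2, 4 siRNA and 6 control; circles are batch A, triangles batch B, the line is the group mean and the bar its SD. The siRNA libraries lie below every control for 9 genes, all but SNHG6, and in PNA2 the libraries lie above every control for SNHG29, GAS5 and SNHG8.

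Among the hosts of box C/D snoRNAs, GAS5 (growth arrest specific 5, first described as a transcript that accumulates in growth-arrested cells) had the largest rise in PNA2 among the 9 tested. Its scaled values were 3485, 5899, 3111 and 2867 in PNA2 replicates 1 to 4, 1311, 1255, 1188 and 1302 in siRNA replicates 1 to 4, and in control ran over 6 libraries from 1760 through a median of 2113 to 2467. Every library labelled PNA2 lay above every control, every siRNA library lay below every control, and PNA2 replicate 2 was far above its group. GAS5 rose by a log2 change of 0.80 in PNA2 (SE 0.15, 95% CI 0.49 to 1.11, limma adjusted p = 0.00252), a 1.74-fold level. Batch A alone gave 1.17 and batch B alone 0.43, called in both (adjusted p = 0.00667 and 0.00425), and leaving out replicate 2 gave 0.57. In siRNA GAS5 fell, with a log2 change of -0.82 (SE 0.16, 95% CI -1.17 to -0.48, adjusted p = 0.0039), and -0.67 within batch A. ZBTB37, a zinc finger gene on the other strand whose start lies 800 bases away, had a log2 change of 0.40 in PNA2 (adjusted p = 0.0109) and -0.12 in siRNA (adjusted p = 0.487). What reads of ZBTB37 add to GAS5 was not tested.

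SNHG29, host of SNORD49A, SNORD49B and SNORD65, had the highest level of all and is described without a test. Its scaled values were 11507, 17418, 10571 and 11099 in PNA2 replicates 1 to 4, 4783, 4729, 5192 and 5032 in siRNA replicates 1 to 4, and over the controls 6344 to 8091 with a median of 7803. The 3 groups did not overlap, and PNA2 replicate 2 again stood apart. The log2 difference from control was 0.72 in PNA2 (SE 0.11; 0.88 in batch A, 0.58 in batch B, 0.57 without replicate 2) and -0.71 in siRNA (SE 0.12; -0.64 in batch A). Over the 14 libraries, after centring each batch, the genes most like SNHG29 among 9643 with a mean value of 100 or more were ZNF527 (Pearson r = 0.976), DCTD (0.976), UBAC2 (0.974), the ribosomal protein gene RPL15 (0.968) and PLEKHB2 (0.967). GAS5 held place 10 in that order, with r = 0.962. These points share the libraries and the 3 groups, and the correlation is given only as a description.

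SNHG1, in which GENCODE 29 places 7 snoRNA genes, starts 188 bases from SLC3A2 on the other strand. Its scaled values were 1931, 3113, 1509 and 1452 in PNA2 replicates 1 to 4, 1156, 1099, 1138 and 1185 in siRNA, and between 1572 and 2075 with a median of 1903 in control. The siRNA libraries lay below every control, and PNA2 had libraries both below and above all controls. In siRNA SNHG1 fell by 0.81 on the log2 scale (SE 0.16, adjusted p = 0.0045; -0.63 in batch A). In PNA2 the log2 change was 0.04 (SE 0.15, 95% CI -0.27 to 0.35, adjusted p = 0.873), made of 0.46 within batch A (adjusted p = 0.0875) against -0.37 within batch B (adjusted p = 0.0108). It was -0.19 without PNA2 replicate 2 and -0.03 without control replicate 4, so no direction is given. SLC3A2, the heavy chain of an amino acid transporter, was called in neither comparison (0.19 in PNA2, adjusted p = 0.596; -0.18 in siRNA, adjusted p = 0.67).

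ZFAS1, which runs antisense from the start of ZNFX1 and hosts the SNORD12 family, had scaled values of 371, 504, 279 and 230 in PNA2 replicates 1 to 4. In siRNA replicates 1 to 4 they were 160, 204, 185 and 195, and in control they ran from 285 through 299 to 352. The siRNA libraries lay below all controls, and the PNA2 libraries lay on both sides of them. ZFAS1 fell by 0.84 on the log2 scale in siRNA (SE 0.17, adjusted p = 0.00417; -0.66 in batch A). In PNA2 its log2 change was 0.12 (95% CI -0.20 to 0.44, adjusted p = 0.627), with 0.55 in batch A (adjusted p = 0.0369), -0.31 in batch B (adjusted p = 0.155) and -0.07 without PNA2 replicate 2. ZNFX1 itself was called in neither comparison (0.02 in PNA2, adjusted p = 0.887; 0.11 in siRNA, adjusted p = 0.472).

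SNHG16, host of the SNORD1 family, was between 824 and 1239 in PNA2, with a mean of 975 ± 189 (SD, n = 4), between 621 and 742 in siRNA (678 ± 54.0, n = 4) and between 856 and 1037 in control (938 ± 70.4, n = 6). Its siRNA libraries did not reach the controls, while PNA2 and control overlapped. The log2 change was -0.57 in siRNA (SE 0.10, adjusted p = 0.00161; -0.50 in batch A, and without rescaling -0.35 with adjusted p = 0.103). In PNA2 it was 0.04 (adjusted p = 0.786), with -0.06 without PNA2 replicate 2.

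SNHG6, which holds SNORD87, was the one host whose siRNA and control libraries overlapped. Its scaled values were 1103, 1289, 958 and 886 in PNA2 replicates 1 to 4, 750, 701, 731 and 850 in siRNA, and 770 to 930 with a median of 859 in control. PNA2 replicate 4 fell within the control range and the other three lay above it. SNHG6 rose by a log2 change of 0.31 in PNA2 (SE 0.09, adjusted p = 0.0264). It no longer passed with PNA2 replicate 2 left out (0.23, adjusted p = 0.0575) or with control replicate 2 left out (0.30, adjusted p = 0.0504), and batch B alone gave 0.15 (adjusted p = 0.352). In siRNA the log2 change was -0.25 (SE 0.10, 95% CI -0.45 to -0.04, adjusted p = 0.0951), and without control replicate 4 it passed the test at -0.32 (adjusted p = 0.0333).

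SNHG5, which holds SNORD50B, had the lowest level of the 10. It measured 70.9, 113, 64.6 and 64.9 in PNA2 replicates 1 to 4, 69.9, 83.6, 64.2 and 81.2 in siRNA, and 87.3 to 114 with a median of 102 in control. All siRNA libraries and 3 of the PNA2 libraries lay below every control, and PNA2 replicate 2 lay within the control range. Neither change passed the test: -0.40 in PNA2 (SE 0.16, 95% CI -0.74 to -0.05, adjusted p = 0.105) and -0.51 in siRNA (SE 0.18, 95% CI -0.89 to -0.12, adjusted p = 0.0653). Without PNA2 replicate 2 both passed, at -0.59 in PNA2 (adjusted p = 0.00992) and -0.43 in siRNA (adjusted p = 0.0355).

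Among hosts of box H/ACA snoRNAs, SNHG8, which holds SNORA24, behaved like GAS5 in sign. Its scaled values were 1127, 1019, 957 and 924 in PNA2 replicates 1 to 4, 599.5, 518, 597 and 660.0 in siRNA, and 666 to 875 with a median of 795 in control. The groups did not overlap, and no PNA2 library stood apart. SNHG8 rose by a log2 change of 0.35 in PNA2 (SE 0.07, 95% CI 0.20 to 0.51, adjusted p = 0.00547). Batch A alone gave 0.34 (adjusted p = 0.0576), batch B alone 0.37 (adjusted p = 0.021), and leaving out PNA2 replicate 2 gave 0.38. In siRNA it fell, at -0.51 (SE 0.08, adjusted p = 0.00108; -0.51 in batch A, and without rescaling -0.29 with adjusted p = 0.179).

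SNHG12, which holds H/ACA snoRNAs and the box C/D snoRNA SNORD99, was lower with both reagents. It had 340, 279, 253 and 221 in PNA2 replicates 1 to 4, 236, 243, 242 and 251 in siRNA, and 296 to 459 with a median of 375 in control. Only PNA2 replicate 1 reached the control range. The log2 change was -0.48 in PNA2 (SE 0.11, adjusted p = 0.0107; -0.32 in batch A with adjusted p = 0.074, -0.64 in batch B) and -0.72 in siRNA (SE 0.13, adjusted p = 0.00181; -0.65 in batch A).

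SNHG15, which holds SNORA9, was likewise lower with both. Its values were 687, 485, 511 and 459 in PNA2 replicates 1 to 4, 520, 566, 535 and 547 in siRNA, and 635 to 733 with a median of 681 in control. Again PNA2 replicate 1 alone reached the control range. The log2 change was -0.36 in PNA2 (SE 0.09, adjusted p = 0.0132) and -0.39 in siRNA (SE 0.10, adjusted p = 0.016). For PNA2 the test was missed within batch A (-0.25, adjusted p = 0.199) and with PNA2 replicate 4 left out (-0.31, adjusted p = 0.0514). For siRNA it was missed within batch A (-0.33, adjusted p = 0.0543), without siRNA replicate 1 (-0.36, adjusted p = 0.0535) and without rescaling (-0.16, adjusted p = 0.463).

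**Figure D2:**
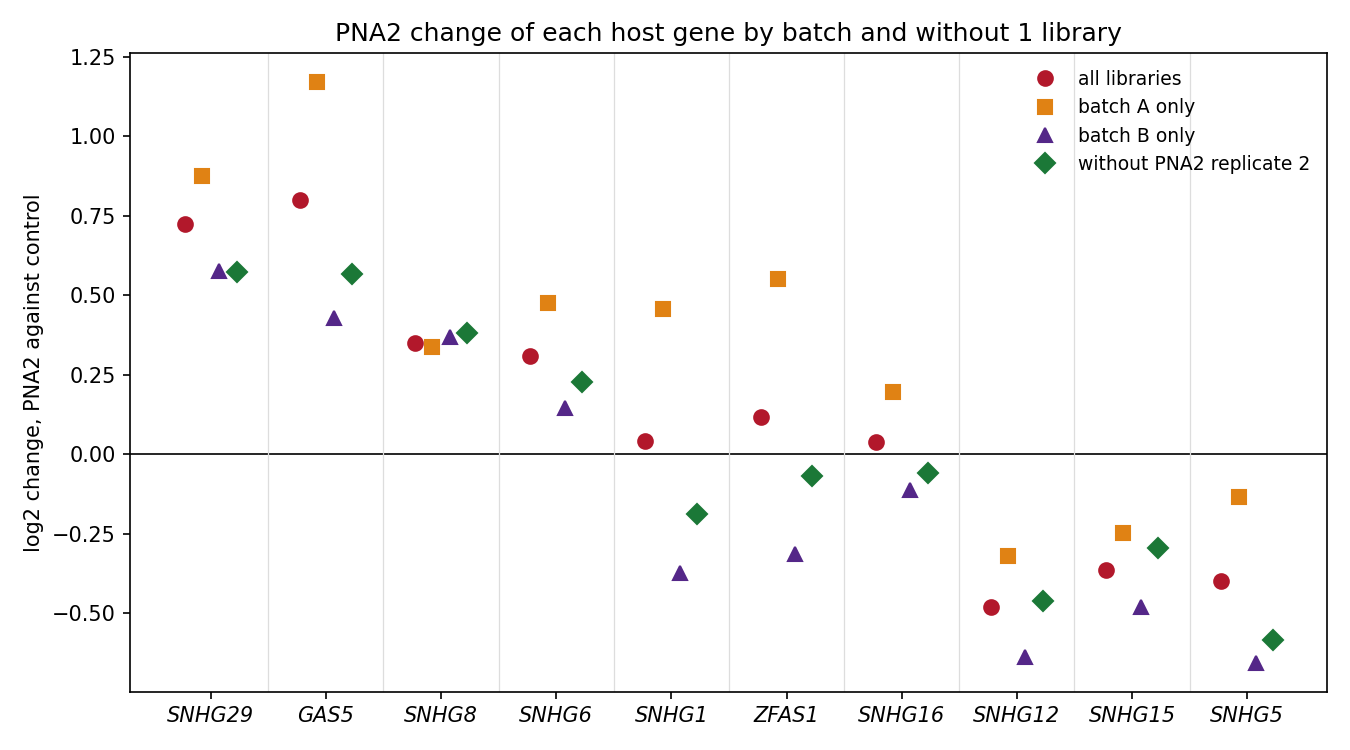
Log2 change of each host gene in the libraries labelled PNA2 against control, from all libraries, batch A only, batch B only and without PNA2 replicate 2; the line marks no change. For SNHG1, ZFAS1 and SNHG16 the sign in batch A is the opposite of that in batch B and of that without replicate 2, while SNHG8 stays between 0.34 and 0.38.

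Counted by non-overlapping libraries, 3 of the 10 hosts were above every control in PNA2, SNHG29 among them, and 0 below, beside 5.23% of all genes tested that were above and 4.99% below. In siRNA 9 of the 10 were below every control, SNHG29 among them, and 0 above, beside 6.89% of all genes below and 8.72% above. In deposited values with no rescaling that siRNA count was 3 of 10, namely GAS5, SNHG1 and ZFAS1. PNA2 lay above siRNA with no overlap for 7 hosts, and below it for 0, beside 13.6% and 14.2% of all genes, a contrast that the choice of genes had used and from which nothing is read.

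The log2 difference of PNA2 minus siRNA, again without a test, was 1.62 for GAS5 (SE 0.18) and 1.43 for SNHG29 (SE 0.13). It was 0.96 for ZFAS1, 0.86 for SNHG8, 0.85 for SNHG1, 0.61 for SNHG16 and 0.56 for SNHG6. The 3 smallest were 0.25 for SNHG12, 0.11 for SNHG5 and 0.02 for SNHG15. Within batch A, where both reagents were present, the difference was 1.84 for GAS5 and 1.51 for SNHG29. Without PNA2 replicate 2 it was 1.30 for GAS5 and 1.22 for SNHG29, 0.53 for SNHG1, 0.12 for SNHG15 and -0.15 for SNHG5. Without PNA2 replicate 1 it was 0.12 for SNHG12, -0.15 for SNHG15 and 0.20 for SNHG5, and without siRNA replicate 3 it was 0.033 for SNHG5. Over all libraries left out in turn, the difference for SNHG15 ran from -0.15 to 0.12.

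Ribosomal protein genes, a large class with TOP tracts, moved together within each comparison. Of 79 listed, 78 were tested. In PNA2 67 were higher and 2 lower, with a mean log2 change of 0.43 and a median of 0.46, beside a median of 0.00 over all genes. In siRNA 68 were lower and 0 higher (limma), with a mean of -0.43 and a median of -0.44, and without control replicate 2 the lower count was 44. RPL39 (0.998), RPS21 (0.78) and RPL34 (0.76), which encode subunits of the ribosome, rose most in PNA2 (adjusted p = 4.4e-06, 6.25e-05 and 4.93e-05). The pair that was lower, RPS10 (-0.79, adjusted p = 0.0482) and RPL36A (-0.72, adjusted p = 0.0286), had low mean deposited values of 18.9 and 41.7 in PNA2 and 29.1 and 59.4 in control. Leaving out any of 11 libraries brought the count of lower genes to 1 or 0 (limma, 2 at an unadjusted p under 0.05), and batch A alone gave 0 (also 0 unadjusted). In siRNA the largest falls were those of RPL36A (-0.86, adjusted p = 0.0197), RPS24 (-0.64, adjusted p = 0.000862) and RPL36 (-0.58, adjusted p = 0.00648). The PNA2 mean was 0.39 in batch A and 0.47 in batch B, and ran from 0.39 to 0.47 as each library was left out. In siRNA the mean was -0.44 in batch A. Without rescaling it was -0.21, beside a median of 0.22 over all genes, and the number of ribosomal protein genes called lower was 0 (limma, with 4 at an unadjusted p under 0.05), against 71 called higher in PNA2.

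Set beside that mean, the hosts were more spread. In PNA2, GAS5 was 0.37 above the mean change of ribosomal protein genes and exceeded 77 of the 78, and SNHG29 was 0.29 above it. SNHG8 (0.08 below) and SNHG6 (0.12 below) were close to it. The other six were below it by 0.31 for ZFAS1, 0.39 for SNHG1 and for SNHG16, 0.79 for SNHG15, 0.83 for SNHG5 and 0.91 for SNHG12. SNHG5, SNHG12 and SNHG15 had changes below those of all ribosomal protein genes but 2, the low-level RPS10 and RPL36A. In siRNA, ZFAS1, GAS5, SNHG1, SNHG12 and SNHG29 lay 0.41, 0.39, 0.38, 0.30 and 0.28 below the ribosomal mean, and only RPL36A had a larger fall than these. SNHG15 was 0.04 and SNHG6 0.18 above it. Within batch A, which holds all siRNA libraries, ZFAS1, GAS5, SNHG1, SNHG12 and SNHG29 were only 0.22, 0.23, 0.20, 0.22 and 0.20 below the ribosomal mean. There SNHG15 was 0.11 and SNHG6 0.26 above it. Several distances depended on PNA2 replicate 2. Without it ZFAS1, GAS5, SNHG1, SNHG12 and SNHG29 were 0.32, 0.28, 0.27, 0.29 and 0.20 below the ribosomal mean in siRNA. In PNA2 without it, GAS5 and SNHG29 were each 0.10 above the ribosomal mean, and GAS5 exceeded 53 of the 78 genes. There SNHG1, ZFAS1 and SNHG6 were 0.66, 0.54 and 0.24 below. Without PNA2 replicate 4 ZFAS1 was 0.15 and SNHG6 0.051 below. In batch B alone GAS5 was 0.040 below the ribosomal mean. The side also changed by batch for ZFAS1, SNHG6 and SNHG1. They were 0.16, 0.083 and 0.063 above the ribosomal mean in batch A alone, and 0.78, 0.32 and 0.84 below it in batch B alone. With quantile normalization in place of TMM, the ribosomal mean was 0.25 in PNA2 and -0.31 in siRNA. SNHG8 and SNHG6 were then 0.13 and 0.091 above it in PNA2, and SNHG15 was 0.072 below it in siRNA. These distances are differences of estimates and were not tested.

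**Figure D3:**
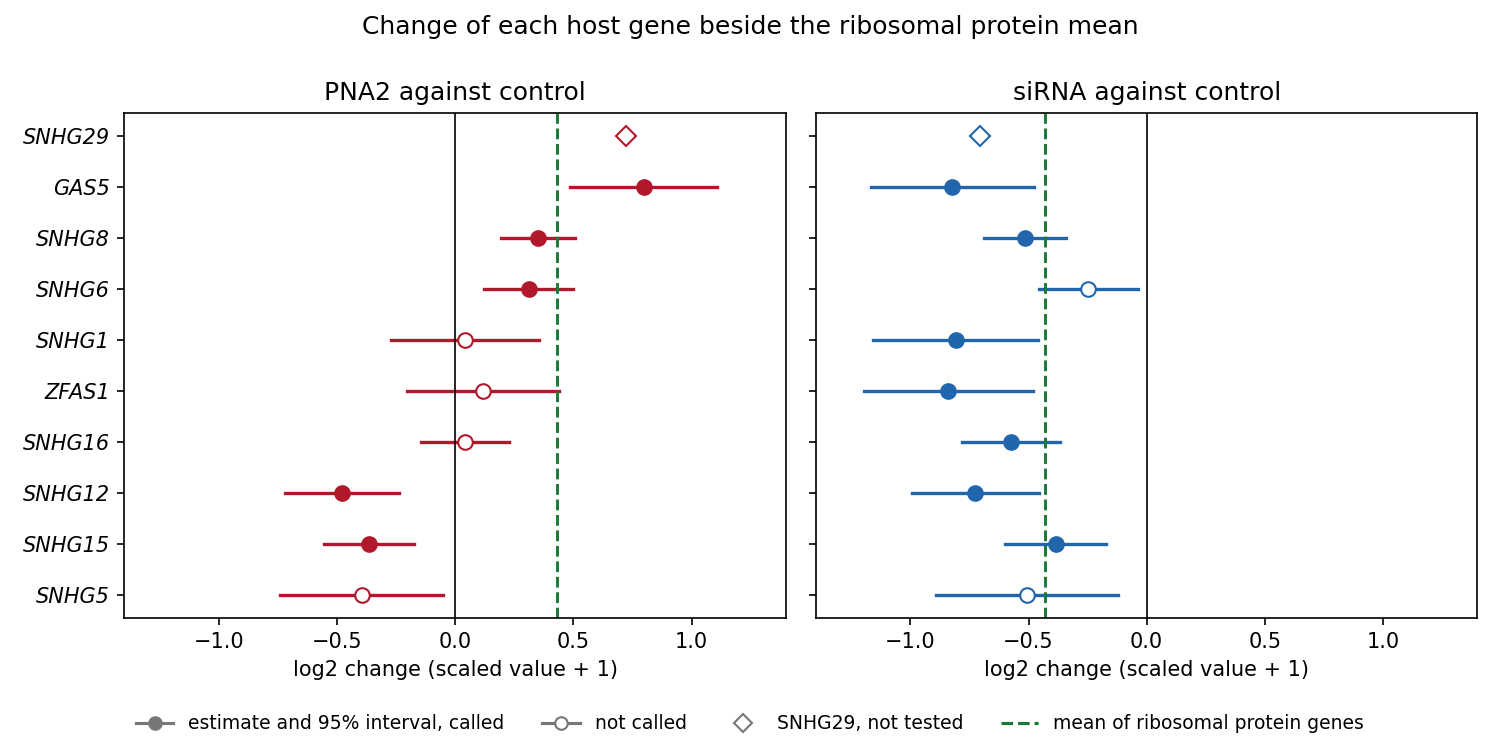
Log2 change of each host gene in PNA2 and in siRNA against control, with its 95% interval (filled, called; open, not called; the diamond, SNHG29, has no test) and the mean change of 78 ribosomal protein genes as a dashed line. In PNA2 the hosts run from -0.48 to 0.80 around a ribosomal mean of 0.43, and in siRNA from -0.84 to -0.25 around -0.43.

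Other messenger RNAs with TOP tracts, mostly translation factors, followed the ribosomal protein genes in sign. Of 18, 17 were tested, and 8 were higher and 0 lower in PNA2 (median 0.21), while 0 were higher and 11 lower in siRNA (median -0.33; limma). VIM (vimentin, 0.74, adjusted p = 0.000318), RACK1 (a ribosome-bound scaffold, 0.40, adjusted p = 0.00809) and EEF1B2 (an elongation factor subunit, 0.40, adjusted p = 0.0142) rose most in PNA2. In siRNA the largest falls were NPM1 (nucleophosmin, -0.49, adjusted p = 0.0201), EEF1B2 (-0.46, adjusted p = 0.0109) and EEF1A1 (-0.44, adjusted p = 0.0364). In batch A alone the PNA2 count was 5. The siRNA count was 5 without control replicate 1, control replicate 2, siRNA replicate 2 or siRNA replicate 4, 6 without siRNA replicate 1 or 3, and 0 without rescaling, where 0 also had an unadjusted p under 0.05.

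Other SNHG genes were mostly lower or not called with either reagent. Of 23, 17 were tested. In PNA2 1 was higher, SNHG14 (0.30, adjusted p = 0.00719), and 5 were lower, led by SNHG4 (-0.83, adjusted p = 0.000197), SNHG3 (-0.57, adjusted p = 0.00277) and SNHG10 (-0.50, adjusted p = 0.00473), with a median of -0.15. In siRNA 10 were lower and 0 higher (limma), led by SNHG4 (-0.998, adjusted p = 0.000101), SNHG26 (-0.87, adjusted p = 0.00143) and SNHG7 (-0.83, adjusted p = 0.00769), with a median of -0.42. In batch A alone 0 were higher (limma, also 0 at an unadjusted p under 0.05) and 2 lower in PNA2. Without rescaling 1 was lower in PNA2 and 4 in siRNA.

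Protein-coding hosts of snoRNAs gave a like picture. Of 31, 30 were tested, and 2 were higher and 9 lower in PNA2 (median -0.18), while 17 were lower and 0 higher in siRNA (median -0.37; limma). The higher pair, RACK1 and EEF1B2, are also TOP messenger RNAs and stand in both lists. EIF4A1 (an RNA helicase of translation initiation, -0.92, adjusted p = 0.0037; mean deposited value 75.4 in PNA2 and 127 in control), PPAN (a ribosome assembly factor, -0.46, adjusted p = 0.00773) and GNL3 (nucleostemin, -0.42, adjusted p = 0.0188) were lowest in PNA2. In siRNA they were TAF1D (a subunit of an RNA polymerase I factor, -0.63, adjusted p = 0.000526), PPAN (-0.63, adjusted p = 0.00216) and EIF4A1 (-0.62, adjusted p = 0.0407). The PNA2 count of lower genes was 4 in batch B alone, and 5 without control replicate 1, control replicate 2 or one of the unnumbered controls. The siRNA count was 11 without control replicate 1, control replicate 2 or siRNA replicate 1. Without rescaling they were 1 in PNA2 and 0 in siRNA (limma, 2 at an unadjusted p under 0.05). The PNA2 mean of the list, -0.17 with rescaling, was then 0.03.

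Proteins that bind and assemble snoRNAs had a median log2 change of -0.19 in PNA2 and -0.35 in siRNA. Their PNA2 mean of -0.15 became -0.33 in batch A alone, 0.03 in batch B alone and -0.03 without PNA2 replicate 2. Of 18 tested, 1 was higher and 2 lower in PNA2: ZNHIT3 (0.39, adjusted p = 0.0217), PIH1D1 (-0.33, adjusted p = 0.008) and NUFIP1 (-0.49, adjusted p = 0.0209), all factors of box C/D particle assembly. The lower count in PNA2 was 5 without PNA2 replicate 1 and 4 without PNA2 replicate 4, and the higher count 2 without replicate 2 and 0 without replicate 4 (limma, 1 at an unadjusted p under 0.05). Batch A alone gave 1 higher and 8 lower, against 0 higher and 0 lower in batch B alone (limma; 2 and 1 at an unadjusted p under 0.05). In siRNA 7 were lower and 0 higher (limma), led by NOLC1 (-0.62, adjusted p = 0.00577), FBL (fibrillarin, the methyltransferase of box C/D particles, -0.55, adjusted p = 0.00643) and GAR1 (a core H/ACA protein, -0.50, adjusted p = 0.0237). That count was 3 without control replicate 1 or siRNA replicate 3, 4 without control replicate 2, siRNA replicate 2 or siRNA replicate 4, and 14 without PNA2 replicate 2. Without rescaling 0 were lower in either comparison (limma; at an unadjusted p under 0.05, 0 in PNA2 and 2 in siRNA), and the PNA2 mean was 0.05 in place of -0.15.

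Factors of nonsense-mediated decay showed no common direction. Of 18 tested, 2 were higher and 3 lower in PNA2, and 1 was higher and 2 lower in siRNA, with medians of -0.04 and -0.06. In PNA2 XRN1 (a 5′ exonuclease, 0.37, adjusted p = 0.0229) and SMG1 (the kinase that phosphorylates UPF1, 0.29, adjusted p = 0.012) rose, and SMG9 (-0.41, adjusted p = 0.00408), GSPT1 (a translation release factor, -0.33, adjusted p = 0.0078) and UPF3A (-0.25, adjusted p = 0.035) fell. In siRNA XRN1 rose (0.46, adjusted p = 0.0122), and UPF3B (-0.44, adjusted p = 0.00556) and RNPS1 (-0.27, adjusted p = 0.0268) fell. The siRNA count of lower genes was 6 without PNA2 replicate 2, and 1 without control replicate 1, 2 or 4 or any siRNA replicate. In batch B alone 1 was higher and 0 lower in PNA2 (limma, 1 lower at an unadjusted p under 0.05), and in batch A alone 1 was higher. Without rescaling 0 were lower in either comparison (limma, also 0 at an unadjusted p under 0.05).

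**Figure D4:**
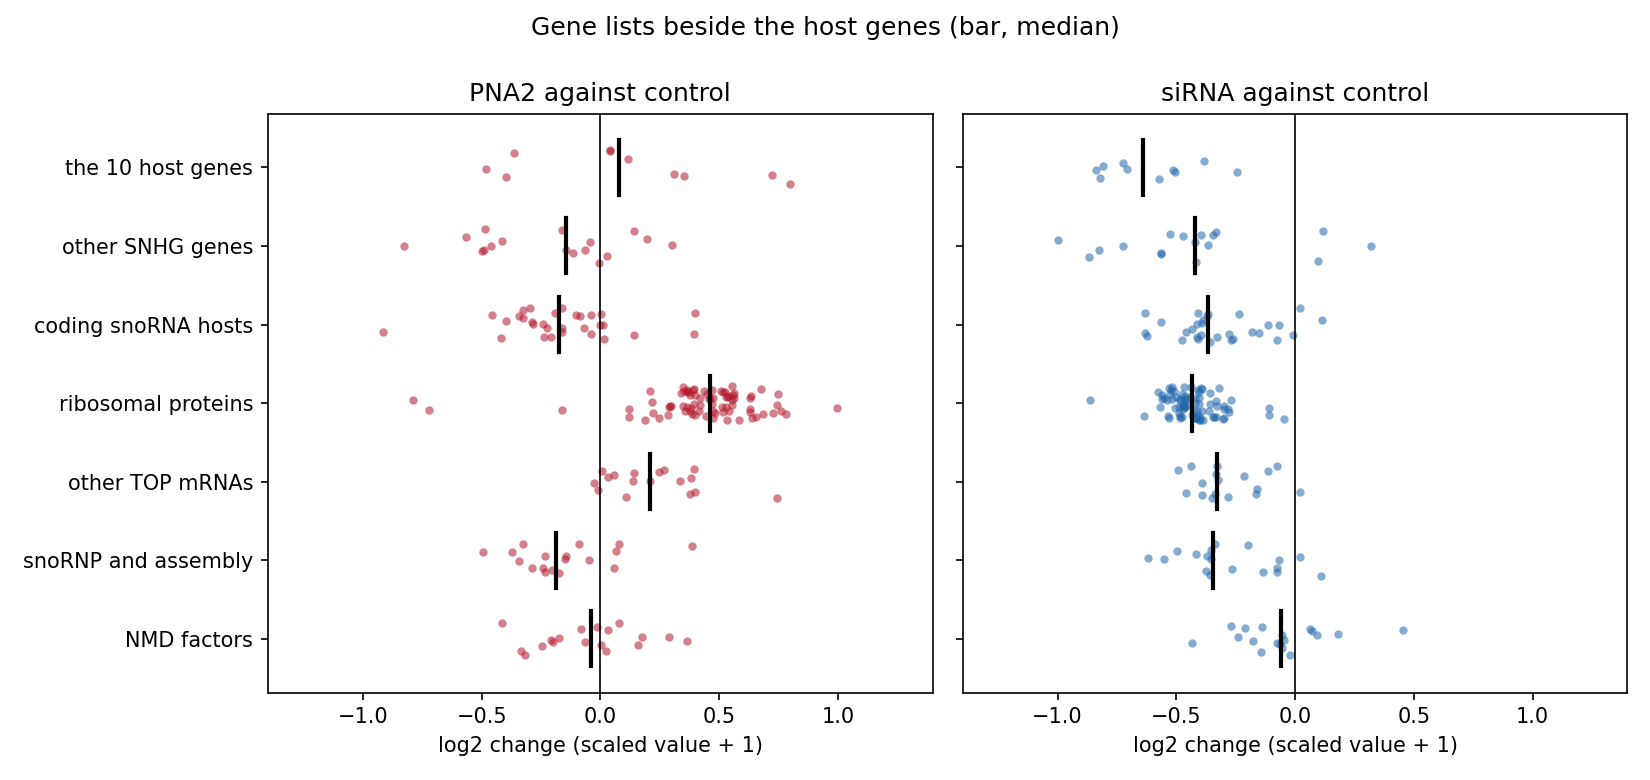
Log2 change of every tested gene of 7 lists in PNA2 and in siRNA against control, 1 point per gene, with the list median as a bar. In PNA2 the ribosomal protein median is 0.46 and that of the 10 host genes, SNHG29 among them, 0.08. In siRNA both are negative, at -0.44 and -0.64. Over the 9 tested hosts the medians are 0.04 in PNA2 and -0.57 in siRNA. The PNA2 mean of the 10, 0.11, is 0.34 in batch A, -0.11 in batch B and 0.01 without PNA2 replicate 2.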

How the data were processed

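RNA-seq libraries of 48 h were used: 4 PNA2, 4 siRNA and 6 control. The submitters' processing notes list GRCh38, HISAT2 2.2.1, HTSeq 0.11.0, SAMtools 1.7, Trimmomatic and DESeq2, with no role or order. The deposited values are batch-adjusted read counts. The values themselves show an adjustment: 21877 of 61541 genes have fractional values and 5099 a value below 0, the lowest being -223.8. How the adjustment was made is not given in the sources used here. Within a batch, pairs of libraries had equal values in 21.5% to 35.3% of 8488 low genes, and pairs between batches in 0%, which gave the 2 batches. All siRNA libraries are in batch A. An adjustment that draws on all libraries of a batch can alter folds. The 2 control columns under one header are the unnumbered controls.

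Negative values became 0, each library was divided by its scale from a trimmed mean of M values (TMM), and log2 of the scaled value plus 1 was taken. Genes reaching 10 in 4 or more libraries were fitted with limma 3.58.1 (mean-variance trend, group and batch, all 14 libraries, R 4.3.3). Two-sided p-values had a Benjamini-Hochberg adjustment across the 14136 genes and a threshold of 0.05. The fit was tested on simulated data. Coordinates, exons and transcripts came from GENCODE 29. The genes and lists were chosen with earlier results of these data known. Genes named besides the 10 hosts and MYC are, per list and comparison, up to 3 called genes with the largest rise and 3 with the largest fall, the 5 genes most like SNHG29, neighbours that start within 2000 bases on the other strand, and genes that overlap a host on the other strand with a mean deposited value above 100, the last chosen after their values were seen. Alternatives were other library scales, no batch term, another pseudocount, no filter, single batches, fewer groups, batches aligned on their controls, a replicate block and leaving out each library. The 72 h table was not used here.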

Additional observations from a re-analysis of the deposited data

Results flagged for a closer look

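Among 33 sets of libraries (the 10 hosts and the ribosomal protein mean, in each of 3 groups, on the log2 scale), 3 had a library far from the others by Dixon's ratio, the gap to the nearest library divided by the range of the group. Chance gives about 1 in 20. In SNHG5, PNA2 replicate 2 stood above the other three PNA2 libraries with a ratio of 0.835 (113 against 64.6 to 70.9). In SNHG29 it was again PNA2 replicate 2, with a ratio of 0.830 (17418 against 10571 to 11507). In ZFAS1, 1 of the unnumbered controls was highest at 352, with a ratio of 0.628.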

How the results depend on the processing

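Of the 602 recomputed values 556 kept their direction and their side of the threshold or, as counts or values with no test, were held as unmoved. For counts that limit was wide. PNA2 counts of genes called, held as unmoved, ran from 1633 (no filter on low values) to 3147 (without PNA2 replicate 1), beside 2358. The PNA2 count with no rescaling, 2181, was also held as unmoved, though its split by direction changed as given above. The cause of the others was not tested. With the 2 groups compared alone in the fit, limma called 1040 genes in PNA2 and 4588 in siRNA, against 2358 and 2464 with all libraries. Without a batch term it called 1201 in siRNA. As each library was left out, the siRNA count ran from 1217 (without control replicate 2) to 4333 (without PNA2 replicate 2). Same-numbered libraries had correlations of -0.07 to 0.25 (median 0.03) after removal of group means, and other pairs -0.26 to 0.28 (median -0.02). In 10 of 24 checks a library correlated best with its own number. These ranges overlap and the pairs are few, so whether the numbers pair the samples was not settled. With a replicate block on the numbered libraries 840 genes were called in PNA2 and 977 in siRNA, SNHG6 was at 0.40 in PNA2 (adjusted p = 0.0563), and SNHG15 was at -0.31 in PNA2 and -0.37 in siRNA, all 3 not called. The same libraries without the block, an alternative added after seeing the data, gave -0.32 for SNHG15 in PNA2, not called. With only the 2 groups, SNHG6 (0.31) and SNHG15 (-0.36) were not called in PNA2. Quantile normalization brought SNHG5 past the threshold in PNA2 (-0.47) and siRNA (-0.58). No rescaling took out SNHG12 (-0.28) and SNHG15 (-0.17) in PNA2 and SNHG8 (-0.29), SNHG15 (-0.16) and SNHG16 (-0.35) in siRNA, and moved SNHG29 in siRNA to -0.48. In batch A alone SNHG8 (0.34), SNHG12 (-0.32) and SNHG15 (-0.25; -0.33 in siRNA) were not called and ZFAS1 was (0.55). In batch B alone SNHG6 (0.15) was not called, SNHG5 (-0.66) was, and SNHG1 (-0.37), SNHG16 (-0.11) and ZFAS1 (-0.31) changed sign. Leaving out each library gave PNA2 ranges of -0.19 to 0.15 for SNHG1, -0.59 to -0.33 for SNHG5, 0.23 to 0.37 for SNHG6, -0.49 to -0.30 for SNHG15, -0.060 to 0.086 for SNHG16 and -0.068 to 0.27 for ZFAS1. In siRNA the ranges were -0.61 to -0.43 for SNHG5, -0.32 to -0.20 for SNHG6 and -0.41 to -0.34 for SNHG15. Aligning the batches on their controls, for PNA2 added after seeing the data, changed no call of the 9 hosts, nor did the median-of-ratios scale, a pseudocount of 10 or no filter on low values. The low level of SNHG5 and the 4 libraries per treated group limit precision.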

Other observations

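RefSeq promoter windows of 300 bases (GRCh38.p14) were matched by symbol for 8 of the 10 hosts, all but SNHG6 and SNHG15. The letters CACGTG, the E-box that MYC is known to bind and the same on both strands, were in 0 of these 8 windows, in 4 of 78 windows of ribosomal protein genes (5.13%) and in 2548 of all 35116 windows (7.26%). The absence says only that these letters are not in these windows.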
